A study of Mus musculus with 3 samples.

Results

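Among 21140 deposited nuclei of the newborn mouse aortic valve region, 254 were endothelial nuclei led by RNA of Kcnc2, Wnt9b, Pthlh and Wnt4, and these are described here. A nucleus was kept with at least 1000 unique molecular identifiers (UMIs, each standing for 1 captured RNA molecule) and at most 5% of them from the mitochondrial genome, which left 14073. It counted as endothelial with at least 4 of the 8 genes Pecam1, Cdh5, Ptprb, Tie1, Egfl7, Tek, Emcn and Erg detected, at most 1 UMI of the lymphatic genes Prox1 and Mmrn1 together, and under 0.5% of UMIs from Ryr2, Ttn, Myh6 and Tnnt2, which left 2557. It was a member when the UMI sum C of Kcnc2, Wnt9b, Pthlh and Wnt4 reached 2 and exceeded the sum of A (Grid1 and Col23a1) and B (Rtl4, Cytl1, Myrip and Gkn3). The other 2303 endothelial nuclei were compared as a whole, and so were a class of them led by A (831 nuclei) and a class led by B (865 nuclei). The remaining 607 are shown in figures and were not compared by a test of their own.

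The study profiled nuclear RNA from frozen aortic valve structures of mouse pups at postnatal day 1, with 3 pools of 22 to 24 aortic roots each as replicates of a single group. All pups were B6.Cg-Scx<tm1.1(EGFP)Skom, in which EGFP is placed at the gene of the tendon and valve factor Scleraxis. There was no treatment, no second genotype and no second age, so each comparison below sets 1 class of nuclei against another inside the same pools. Each pool mixes many pups, and p-values measure the spread between these 3 pools.

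Kcnc2 encodes Kv3.2, a voltage-gated potassium channel best known from fast-firing neurons. Wnt9b and Wnt4 are secreted Wnt ligands, and Pthlh encodes parathyroid hormone-related protein, a paracrine peptide. Endocardial cells line the heart and give rise to valve endothelium, and in developing mouse valves the flow-responsive factors Klf2 and Klf4 are known to act upstream of Wnt9b, which signals to the valve mesenchyme. The position of these nuclei on a leaflet, sinus or root wall was not recorded, so "valve" in the working name of the class could not be checked.

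The stretches before the starts of the secreted-factor genes are shown because Klf2 and Klf4 RNA differed between the classes (flow-response genes, further down). Each is the 250 bases before the RefSeq start on build GRCm38.p6, an earlier build than the GRCm39 named in the submitters' processing notes. Capitals mark CACCC or its complement GGGTG, the core letters bound by Klf factors, read on both strands. Wnt9b is at chr11:103749822-103750071 on the minus strand, Wnt4 at chr4:137277385-137277634 on the plus strand, Wnt7a at chr6:91411354-91411603 and Pthlh at chr6:147264014-147264263, both on the minus strand.
Wnt9b: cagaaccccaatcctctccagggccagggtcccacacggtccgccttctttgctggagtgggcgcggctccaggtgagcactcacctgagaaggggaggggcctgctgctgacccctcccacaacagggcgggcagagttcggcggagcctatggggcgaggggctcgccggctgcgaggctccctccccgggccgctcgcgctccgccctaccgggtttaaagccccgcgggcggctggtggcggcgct
Wnt4: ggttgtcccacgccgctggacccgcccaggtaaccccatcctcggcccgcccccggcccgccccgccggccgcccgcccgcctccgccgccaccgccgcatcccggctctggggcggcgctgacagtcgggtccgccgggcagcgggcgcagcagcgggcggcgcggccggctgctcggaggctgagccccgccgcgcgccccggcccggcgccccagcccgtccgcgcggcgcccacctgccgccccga
Wnt7a: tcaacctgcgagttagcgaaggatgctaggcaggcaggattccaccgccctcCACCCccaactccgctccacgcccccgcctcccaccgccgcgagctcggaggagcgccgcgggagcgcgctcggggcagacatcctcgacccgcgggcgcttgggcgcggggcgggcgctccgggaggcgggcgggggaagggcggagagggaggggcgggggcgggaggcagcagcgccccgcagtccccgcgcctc
Pthlh: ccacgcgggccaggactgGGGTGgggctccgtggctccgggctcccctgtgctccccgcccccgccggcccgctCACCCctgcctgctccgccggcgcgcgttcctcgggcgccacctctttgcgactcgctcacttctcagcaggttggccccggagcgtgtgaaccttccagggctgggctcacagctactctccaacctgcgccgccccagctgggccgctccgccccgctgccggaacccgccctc
With Kcnc2 (the first of 4 listed starts) and Nppc included, 3 of 6 such stretches held CACCC, against 51.3% of 27025 promoters of the same length. The letters AGATAA, bound by Gata factors, were in 0 of 6 against 10.3% of promoters, and the letters GGAAA, the core of Nfat sites, were in 1 of 6 against 55.6%. The share of the 6 with CACCC was thus near that of all promoters.

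The members carried the endothelial label. The 8 endothelial genes summed to 5249, 5443 and 4351 CPM (UMIs of a gene scaled by the UMI total of that class in that pool) in the members of pools 1, 2 and 3, against 5182, 5808 and 5758 in the other endothelial nuclei and 29.2 to 42.6 in cardiomyocyte nuclei. Those 8 genes were part of the rule, so this is a description. Of the markers of other cells, the fibroblast and valve interstitial list of 9 genes summed to 3301, 2112 and 2973 CPM in members and 4395, 4146 and 2925 in the other endothelial nuclei, and the cardiomyocyte list of 7 genes to 787, 866 and 1374 against 865, 932 and 611. The Schwann cell and melanocyte list of 6 genes summed to 103, 73.9 and 90.2 CPM in members and 64.5, 87.4 and 44.4 in the others, with its marker Sox10 at 0 in the members and 1 of 4 tested genes higher (Mitf). Their part in the results below was not tested.

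Members made up 8.88% of endothelial nuclei in pool 1 (116 of 1306, Wilson 95% interval 7.46 to 10.5), 9.48% in pool 2 (60 of 633, 7.44 to 12) and 12.6% in pool 3 (78 of 618, 10.2 to 15.5), a mean of 10.3% ± 2.01 (SD, n = 3). The intervals cover counting error only. The share moved with the limit on mitochondrial UMIs: without it 467 nuclei met the rule and the share was 15.1%. It was 3.94% when C was counted without Kcnc2. The limit removed 47.3%, 54.5% and 32.2% of the nuclei that met the rest of the member rule in pools 1, 2 and 3, against 18.2%, 14.6% and 11.6% of the other endothelial nuclei.

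**Figure D1:**
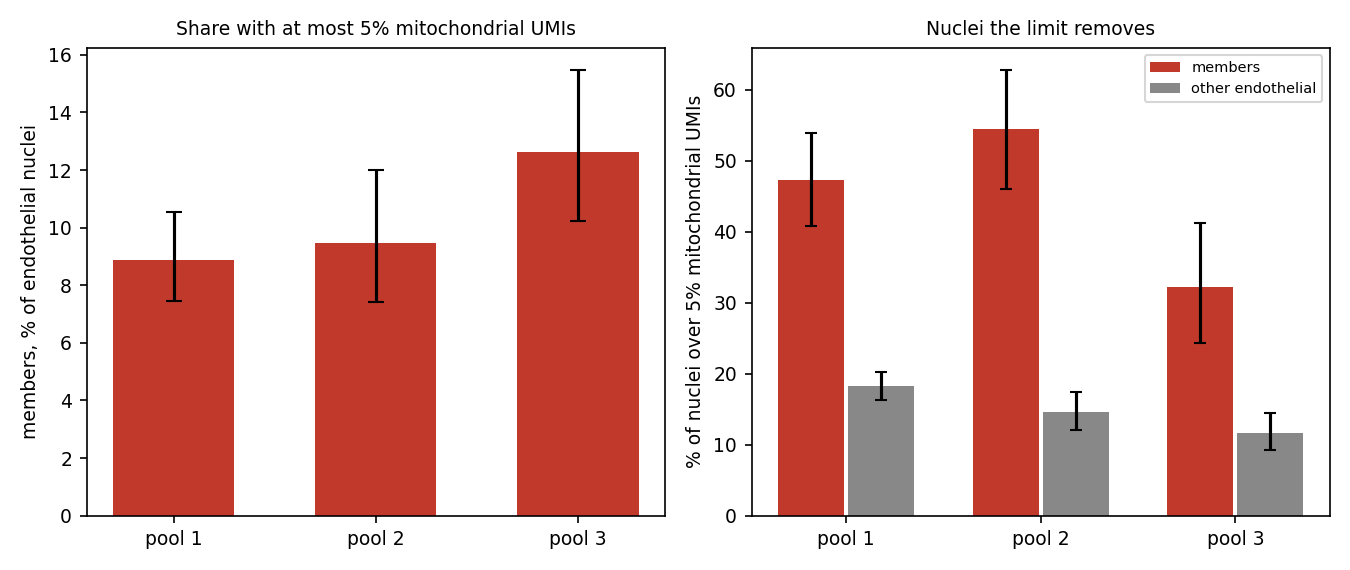
Left, members as a percentage of endothelial nuclei in each pool. Right, the percentage of nuclei over the 5% mitochondrial limit, for nuclei that otherwise met the member rule and for the other endothelial nuclei. Bars start at 0 and lines are Wilson 95% intervals. In each pool the limit removed a larger percentage of the member class than of the other endothelial nuclei.

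Among the kept nuclei the members also had more mitochondrial UMIs and greater depth. The median mitochondrial percentage was 2.36, 2.96 and 1.40 in members and 1.23, 1.49 and 0.978 in the others, and the median UMI total was 6972, 6669 and 3770 against 5166, 5045 and 3602. Nuclei marked as likely doublets were 10.6% of members and 10.9% of the others. Members sharing a barcode with a nucleus of another pool numbered 4, and no 2 members shared one. Of 25 tested immediate early and heat shock genes, a list chosen after its values were seen, 17 were higher in the members with edgeR and 13 with DESeq2 (median log2 difference 1.08). Counts called after matching nuclei on mitochondrial percentage are given with the gene groups below.

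Kcnc2 was the broadest of the 4 genes summed in C, with a UMI in 235 of 254 members (92.5%). Pthlh was detected in 94 (37.0%), Wnt4 in 93 (36.6%) and Wnt9b in 81 (31.9%). Kcnc2 was the only one of the 4 in 118 members (46.5%), and all 4 were detected in 41 (16.1%). A gene with no UMI was not detected at this depth (median 5840 UMIs a member), which does not show that it is absent. In cardiomyocyte nuclei (median 5528 UMIs) the shares with a UMI were 0.764% for Kcnc2, 0.288% for Pthlh, 0.663% for Wnt4 and 0.237% for Wnt9b, as means of the 3 pools.

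Summed over members, Kcnc2 stood at 1583, 2883 and 2047 CPM in pools 1, 2 and 3, against 25.7, 26.7 and 48.7 in the other endothelial nuclei. Wnt9b was at 183, 306 and 192 CPM against 1.5, 6.04 and 3.02. Pthlh was at 229.6, 332 and 92.5 CPM against 10.6, 8.34 and 6.03, and Wnt4 at 257, 308 and 167 against 4.62, 6.61 and 3.88. These levels chose the nuclei, and they are given with no test. Pool 2 was the highest of the 3 for each of the 4 genes, and pool 3 was the lowest for Pthlh and Wnt4.

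Reading each gene in nuclei chosen by the other 3 removes its own part in the choice. The nuclei chosen without Kcnc2 (101 of them) held 1825, 3405 and 3427 CPM of Kcnc2, against 119, 193 and 237 in the remaining endothelial nuclei. Wnt9b read 172, 291 and 192 CPM against 3.48, 10.5 and 3.02, and Wnt4 read 259, 308 and 167 against 4.98, 6.61 and 4.29. Pthlh read 214, 297 and 80.8 CPM against 14.7, 15.9 and 8.57. For each gene the lowest pool of chosen nuclei lay above the highest pool of the rest. The 4 genes were picked as a set from these same pools, so this is a description of how they co-occur.

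The sum C ran from 2 to 351 UMIs with a median of 10. Just inside the rule, 26 members had C of 2 and 14 had C exactly 1 above A and B; just outside, 36 nuclei had C of 1 with no UMI of A or B, and 18 had C of 2 or more equal to A and B. The sum C is not scaled to depth, and depth moved with it: the median UMI total was 4671 at C of 2 to 4 and 6838 at C of 13 or more.

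**Figure D2:**
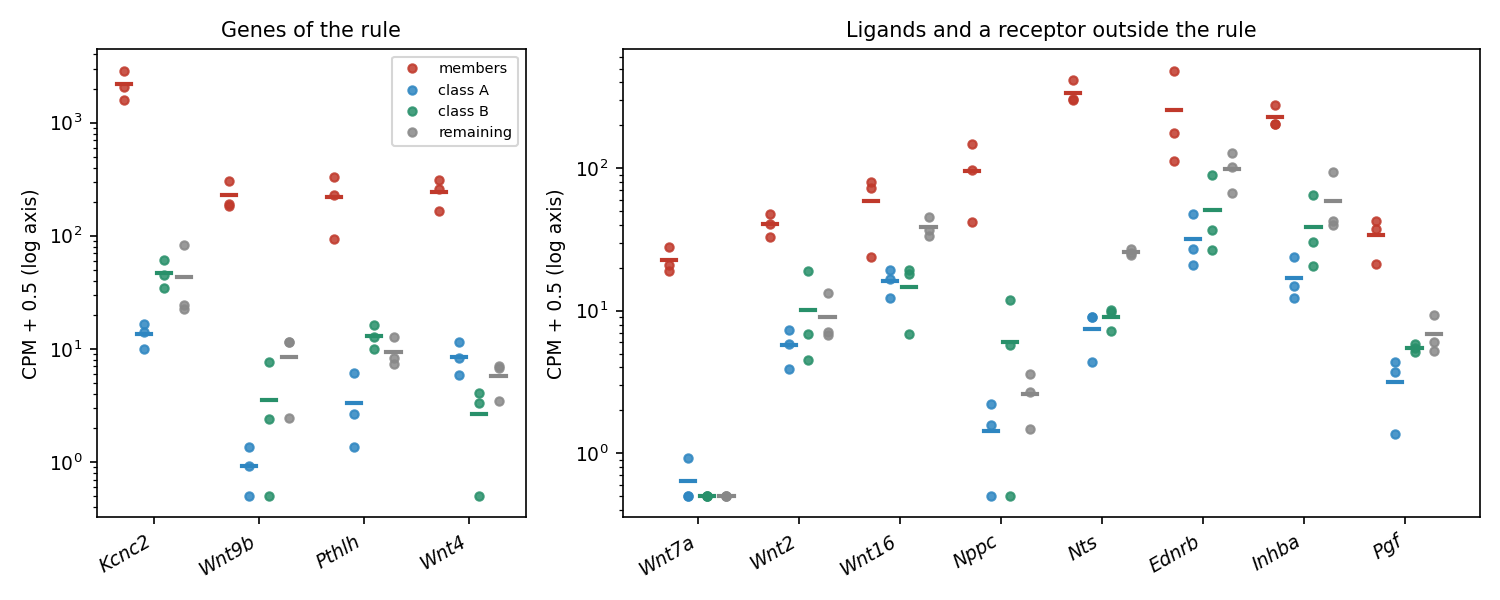
CPM + 0.5 on a log axis for the 4 rule genes (left) and for 8 ligand and receptor genes outside the rule (right), in members, class A, class B and the remaining endothelial nuclei. Each point is 1 pool and each line the mean of the 3 pools. The rule genes are high in members by construction; Nts stood at 299.9, 414 and 303 CPM in the members, above all pools of the other classes.

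Outside the rule genes, 11988 genes were tested between the members and the other endothelial nuclei. At an adjusted p under 0.05 (edgeR's quasi-likelihood test with pool as a block, Benjamini-Hochberg adjustment), 1376 genes differed (11.5% of those tested), 791 higher in members (6.6%) and 585 lower (4.88%). With a difference of at least 2-fold, the same direction in 3 of 3 pools and 20 CPM in the higher class, 346 were higher (2.89%) and 263 lower (2.19%). The count fell to 773 of 7674 tested genes after matching nuclei on mitochondrial percentage (425 higher and 348 lower). It was 882 of 7864 after matching on UMI total, 797 with DESeq2 and 2680 with no mitochondrial limit. The counts of gene lists below are to be read beside these counts over all genes. Where pools are said below not to overlap, the share of all tested genes without overlap was not counted.

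The genes furthest above the other endothelial nuclei were led by secreted factors. Wnt7a, another Wnt ligand, stood at 20.5, 27.5 and 18.5 CPM in members. It had 42 UMIs in 13 members, 28.6% of them in 1 nucleus, against 1 UMI in all other endothelial nuclei, a ratio of 301 (95% counting interval 51.1 to 12154). Nts, the precursor of the peptide neurotensin, stood at 299.9, 414 and 303 CPM in members and 11.6, 13.5 and 12.5 in the others (log2 difference 4.75, SE 0.16, adjusted p = 4.38e-10). Every member pool was above every other pool, and 56 members carried a UMI.

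Nppc, the precursor of C-type natriuretic peptide, was at 96.7, 148 and 41.6 CPM against 2.62, 5.75 and 1.29 (log2 difference 4.95, SE 0.25). Inhbb, the beta B subunit of inhibins and activins, was at 43, 52.8 and 11.6 CPM against 1.75, 2.59 and 2.58 (log2 difference 4.09, SE 0.43). Pool 3 was the lowest member pool for both, yet still above all pools of the others. Both genes entered the test through their UMIs in the members alone, so their calls add nothing to these levels. Thinned to 1000 UMIs per nucleus, Nts was seen in 10.4% ± 4.98 of members (SD, n = 3), 0.740% of the other endothelial nuclei and 0.157% of cardiomyocyte nuclei, and Nppc in 3.82% ± 2.20, 0.231% and 0.0906%. Unthinned, the shares were 22.3% of members for Nts and 12.4% for Nppc.

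Adamts8, a secreted metalloprotease, was at 144, 319 and 97.2 CPM in members and 7.36, 6.61 and 2.15 in the others (log2 difference 4.92, SE 0.25, adjusted p = 1.96e-08). Prnp, the prion protein gene, was at 356, 477 and 176 against 21.6, 21.8 and 9.91 (log2 difference 4.21, SE 0.16, adjusted p = 1.3e-09). Fam155a, a subunit of the sodium leak channel, was at 656, 807 and 416 against 35.3, 26.2 and 29.7 (log2 difference 4.35, SE 0.19, adjusted p = 5.85e-09). None of these overlapped between the classes. Further top 15 genes were Serpinb9b, Fam167a, the neuronal pentraxin Nptx1, the tau gene Mapt, Rassf5, the receptor partner Ramp3 and the kinase Nuak2. Their log2 differences ran from 4.09 to 5.92. Serpinb9b has close paralogs, and reads shared between them were not measured here. It entered the test through its UMIs in the members alone.

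The 10 genes furthest below the others were Dlx6os1, Gm52229, Muc16, Trpc5, 2610316D01Rik, Adh1, Tenm2, Enox1, Gabrb1 and Pld5. Trpc5, a cation channel, was at 2.93, 0 and 2.31 CPM in members against 60.4, 40.8 and 47 (log2 difference -4.64, SE 0.42). Tenm2, a neuronal adhesion teneurin, was at 7.82, 0 and 2.31 against 78.3, 88.8 and 77.1 (log2 difference -4.13, SE 0.38). Both were low in each member pool, and the same direction in 3 of 3 pools was a condition for naming them. Both entered the test through their UMIs in the other endothelial nuclei, so their calls add nothing to these levels. Dlx6os1, which lies antisense to Dlx6, had 1 UMI in members and 438 in the others, a ratio of 61.2 (10.9 to 2422); whether counting used strand is not given in the sources used here. Muc16 is a mesothelial mucin, and the 5 mesothelial markers summed to 34.2, 50.7 and 62.5 CPM in members and 135, 93.7 and 91.8 in the others; their part in this result was not tested.

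Of 19 Wnt ligands on the list, 2 are rule genes and 7 were tested. Wnt7a was among the 7 through its UMIs in the members alone, so its call adds nothing to its counts above. Of the other 6, Wnt2 and Wnt16 were higher in members and 0 were lower (1 at an unadjusted p under 0.05, 0 with DESeq2). Wnt2 stood at 46.9, 40.1 and 32.4 CPM against 8.11, 10.3 and 5.17 (log2 difference 2.37, SE 0.28, adjusted p = 4.37e-05). Wnt16 stood at 80.1, 23.2 and 71.7 against 24.2, 18.4 and 19.8 (log2 difference 1.47, SE 0.26, adjusted p = 0.00135), with pool 2 nearest to the others. The median of the 7 was -0.19, against 0.01 over all genes tested. Against class A and against class B, Wnt2 and Wnt16 were again the higher ones of the 4 tested besides Wnt7a. With matching on mitochondrial percentage, 2 of 3 tested ligands were higher.

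Of 20 tested Wnt receptors and secretion genes, 0 were higher and 4 lower with edgeR. With DESeq2 0 were higher and 1 lower (0 higher also at an unadjusted p under 0.05). Over all genes tested, edgeR called 6.6% higher and 4.88% lower, and 0 of 20 higher lies near that share. The 4 lower genes were the co-receptor Ror2 (log2 difference -0.94), the R-spondin receptor Lgr4 (-0.78) and the frizzled receptors Fzd4 (-0.66) and Fzd6 (-0.66). Each of the 4 lost its call in at least 1 alternative: Ror2, Lgr4 and Fzd4 with DESeq2, Ror2 also without pool 2 and without the replicate block, Lgr4 without pool 1, Fzd4 without any 1 of the pools, and Fzd6 after matching on UMI total. Ror2 and Fzd4 also lost it after matching on mitochondrial percentage. After that matching 0 of 15 receptor and secretion genes were higher and 2 lower. Of 14 tested inhibitors and targets, 4 were higher and 3 lower (2 and 3 of 9 after matching). Nkd1, a Wnt target and inhibitor, was at 79.1, 73.9 and 78.7 CPM against 34, 28.7 and 31.9 (log2 difference 1.29, SE 0.18, adjusted p = 0.000207), with no overlap between classes. Apcdd1, also an inhibitor, was at 60.6, 63.4 and 53.2 against 23.8, 30.2 and 23.3 (log2 difference 1.22, adjusted p = 0.000757, and 0.067 after mitochondrial matching). Axin2, the common target, was higher by 1.74 (adjusted p = 0.0233), a call lost without pool 2, without pool 3, with DESeq2 and with members chosen without Kcnc2. Lef1 went the other way (log2 difference -1.11 to -0.51 across alternatives). Its call was lost with DESeq2, without pool 2 and after mitochondrial matching, among others. Sfrp1, a secreted inhibitor, was at 49.8, 27.5 and 25.4 against 134, 125 and 113 (log2 difference -1.77, adjusted p = 2.53e-05).

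Of 14 tested peptide genes and their receptors, 4 were higher and 1 lower (3 and 2 of 13 after mitochondrial matching). Over all genes tested 6.6% were higher and 4.88% lower. Nppc, a natriuretic peptide gene, was tested through its UMIs in the members alone. The endothelin pair split: the receptor Ednrb stood at 177, 484 and 111 CPM in members and 36.4, 69 and 65.9 in the others (log2 difference 2.10, SE 0.26, adjusted p = 7.59e-05). The ligand Edn1 stood at 65.5, 52.8 and 46.3 against 219, 243 and 274 (log2 difference -2.08, SE 0.17, adjusted p = 2e-06). Pools did not overlap for either gene, and pool 2 held the highest Ednrb. The Ednrb call was lost when members were chosen without Kcnc2 (log2 difference 0.56). Against class A the difference in Edn1 was -2.59 and against class B -1.96.

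Of 24 tested flow-response genes, 8 were higher and 0 lower than in the other endothelial nuclei (1 lower at an unadjusted p under 0.05, 0 with DESeq2), with a median of 0.29 against 0.01 over all genes. Klf4, a flow-induced factor, was at 203, 283 and 178 CPM against 60.7, 52.3 and 56.9 (log2 difference 1.95, SE 0.17, adjusted p = 2.48e-06). Klf2 was at 462, 522 and 222 against 129, 158 and 101 (log2 difference 1.62, SE 0.15, adjusted p = 4.65e-06). Both were higher in all 3 pools, and pool 3 was the lowest member pool for each. Thbd, the anticoagulant thrombomodulin, differed by 1.34, the lipid receptor S1pr1 by 1.26 and the nitric oxide synthase Nos3 by 0.63 (adjusted p = 0.00446). After matching on mitochondrial percentage 6 of 23 were higher. Against class A, 13 of the 24 were higher and 2 lower, Map2k5 and Hdac7 (median 0.56), and against class B 8 were higher and 0 lower (median 0.29). The immediate early and heat shock genes moved with this group, with 9 of 18 higher after the same matching, and their part in the Klf2 and Klf4 result was not tested.

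Against class A, Klf4 differed by 3.11 and Klf2 by 2.24, and against class B by 1.58 and 1.21, each at an adjusted p of 6.38e-05 or less. Nos3 differed from class A by 0.69 (adjusted p = 0.00364) and from class B by 0.40, which did not pass the test (adjusted p = 0.0984).

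**Figure D3:**
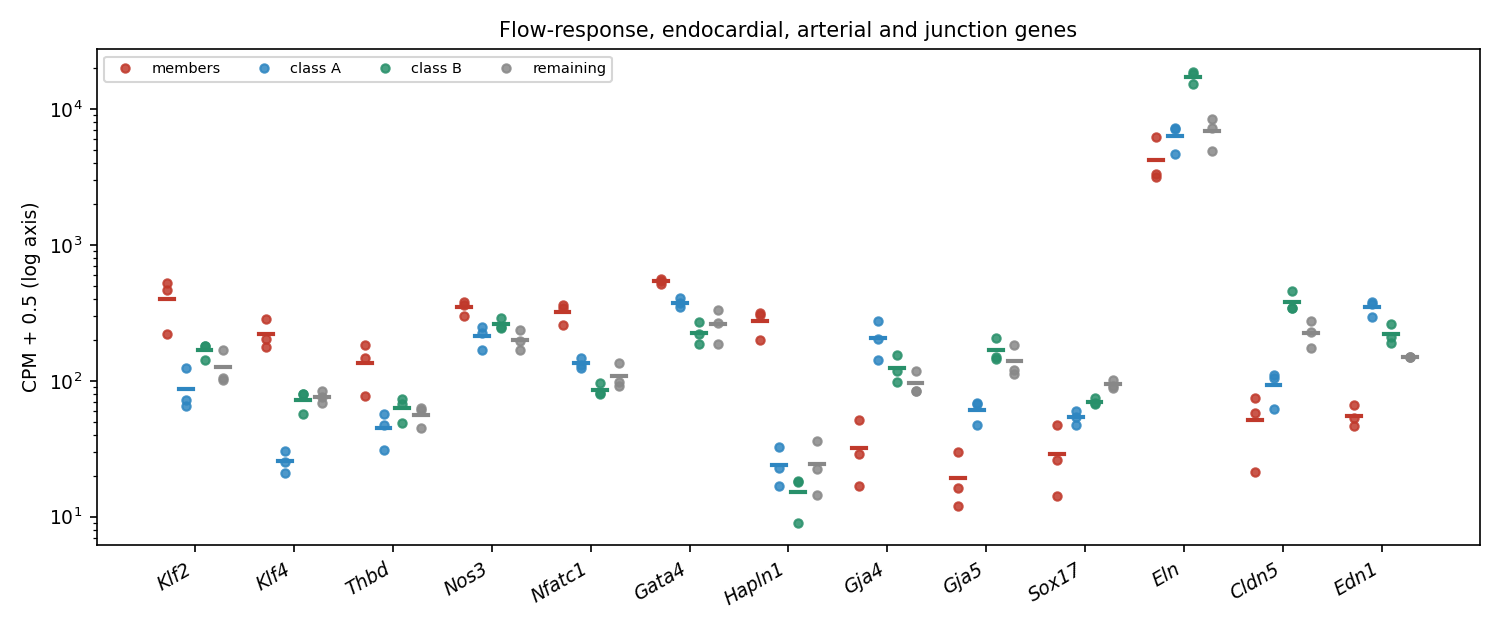
CPM + 0.5 on a log axis for flow-response, endocardial, arterial and junction genes in members, class A, class B and the remaining endothelial nuclei. Each point is 1 pool and each line the mean of the 3 pools. Klf4, Nfatc1 and Hapln1 lay highest in members, and Gja5, Sox17, Cldn5 and Edn1 lowest.

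Of 18 tested endocardial genes, 10 were higher and 2 lower, with a median of 0.63. Hapln1, which links hyaluronan to proteoglycans in valve cushions, stood at 317, 304 and 199 CPM against 20.2, 18.1 and 22.4 (log2 difference 3.79, SE 0.18, adjusted p = 1.27e-08). Nfatc1, a factor of valve endocardium, stood at 361, 344 and 259 against 97.5, 109.5 and 117 (log2 difference 1.60, SE 0.15, adjusted p = 5.79e-06). The member pools lay above all other pools for both genes. Smoc1, a matrix protein, was the clearest exception at 86.9, 135 and 67.1 against 367, 396 and 388 (log2 difference -2.00, adjusted p = 2.52e-06). After mitochondrial matching 6 of 17 were higher and 1 lower. Against class A, 8 of the 18 were higher and 4 lower (median 0.31), and against class B 10 were higher and 2 lower (median 0.79).

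Among 36 tested valve and endocardial transcription factors, 10 were higher and 6 lower (6 and 4 with DESeq2, 7 and 3 of 26 after mitochondrial matching), and the Gata family split. Gata4 was at 513, 547 and 562 CPM against 233, 299.8 and 325 (log2 difference 0.94, adjusted p = 0.000117), while Gata6 was at 250.1, 177 and 291 against 486, 455 and 486 (log2 difference -1.0, adjusted p = 0.000193). Gata5 was higher by 1.5 and lost its call without pool 1. Isl1, a second heart field factor, was at 9.77, 2.11 and 4.63 against 46.2, 36.5 and 38.8 (log2 difference -2.68). It entered the test through its UMIs in the other endothelial nuclei. Mecom was lower (log2 difference -1.20).

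Arterial genes were lower or did not pass the test against the other endothelial nuclei. Of 20 tested, 11 were lower and 0 higher (1 higher at an unadjusted p under 0.05, 0 with DESeq2), with a median of -0.88. After mitochondrial matching 10 of 16 were lower. Against class A the count was 9 lower and 4 higher of 21 tested (median -0.45), and against class B 12 lower and 0 higher (median -0.97). The connexin Gja5 was at 15.6, 29.6 and 11.6 CPM against 113, 115 and 136 (log2 difference -2.69, SE 0.25, adjusted p = 4.7e-06). The connexin Gja4 was at 28.3, 50.7 and 16.2 against 134, 186 and 112 (log2 difference -2.19, SE 0.20, adjusted p = 3.42e-06). No member pool reached the lowest pool of the others for either gene. Elastin (Eln) was at 6277, 3348 and 3139 against 12839, 11598 and 8118 (log2 difference -1.39, adjusted p = 1.53e-05), the arterial factor Sox17 was lower (log2 difference -1.46) and the ephrin Efnb2 too (-1.21). The elastin difference was -0.62 against class A and -2.12 against class B.

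Gja1, another connexin, went the other way, at 72.3, 108 and 69.4 CPM against 30.8, 28.2 and 14.6 (log2 difference 1.70, SE 0.22, adjusted p = 9.5e-05). It also stands at 391, 469 and 350.0 CPM in cardiomyocyte nuclei, whose marker sums in members are given above; their part in this value was not tested. The tight junction gene Cldn5 was at 57.6, 73.9 and 20.8 against 232, 293 and 197 (log2 difference -2.21, SE 0.19, adjusted p = 2.89e-06), with -0.84 against class A and -2.88 against class B. Of 23 tested junction genes 3 were higher and 3 lower (2 and 3 of 21 after mitochondrial matching). Over all genes 6.6% were higher and 4.88% lower, and 425 and 348 of 7674 after that matching.

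Venous and capillary genes numbered 5 higher and 1 lower of 17 tested, with a median of 0.51, 2 and 1 with DESeq2, and 2 and 1 of 12 after mitochondrial matching. The water channel Aqp1 was at 461, 568 and 219.8 CPM against 96.6, 108 and 56.9 (log2 difference 2.23, SE 0.14, adjusted p = 1.11e-07), with all member pools above all others. Vwf, the clotting factor carrier, was lower (log2 difference -1.30). The venous factor Nr2f2 differed by 0.80 (adjusted p = 0.0409) and lost its call in 9 alternatives, among them mitochondrial matching, without pool 1 and without pool 2. Of 18 tested genes shared with venous and lymphatic valves, 7 were higher and 5 lower (3 and 5 with DESeq2, 4 and 5 of 15 after matching). Sema3a, a secreted guidance cue, was at 426, 644 and 497 against 36.9, 45.1 and 43.1 (log2 difference 3.64, SE 0.14, adjusted p = 1.3e-09).

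Of 27 tested BMP and TGF-beta genes, 8 were higher and 5 lower, and 3 and 4 of 24 after mitochondrial matching. Inhba, which forms activin A, was at 204, 205 and 278 CPM against 30.3, 54.9 and 22.8 (log2 difference 2.70, SE 0.23, adjusted p = 2e-06). Tgfb2 was higher by 1.40, and so was the BMP target Id1, by 1.5. Bmp2 was higher by 2.08, a call lost after mitochondrial matching and with members chosen without Kcnc2. Bmp6 was at 284, 196 and 287 against 1139, 1251 and 1534 (log2 difference -2.33, SE 0.15, adjusted p = 1.25e-07), and Bmp4 was lower (log2 difference -1.89).

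**Figure D4:**
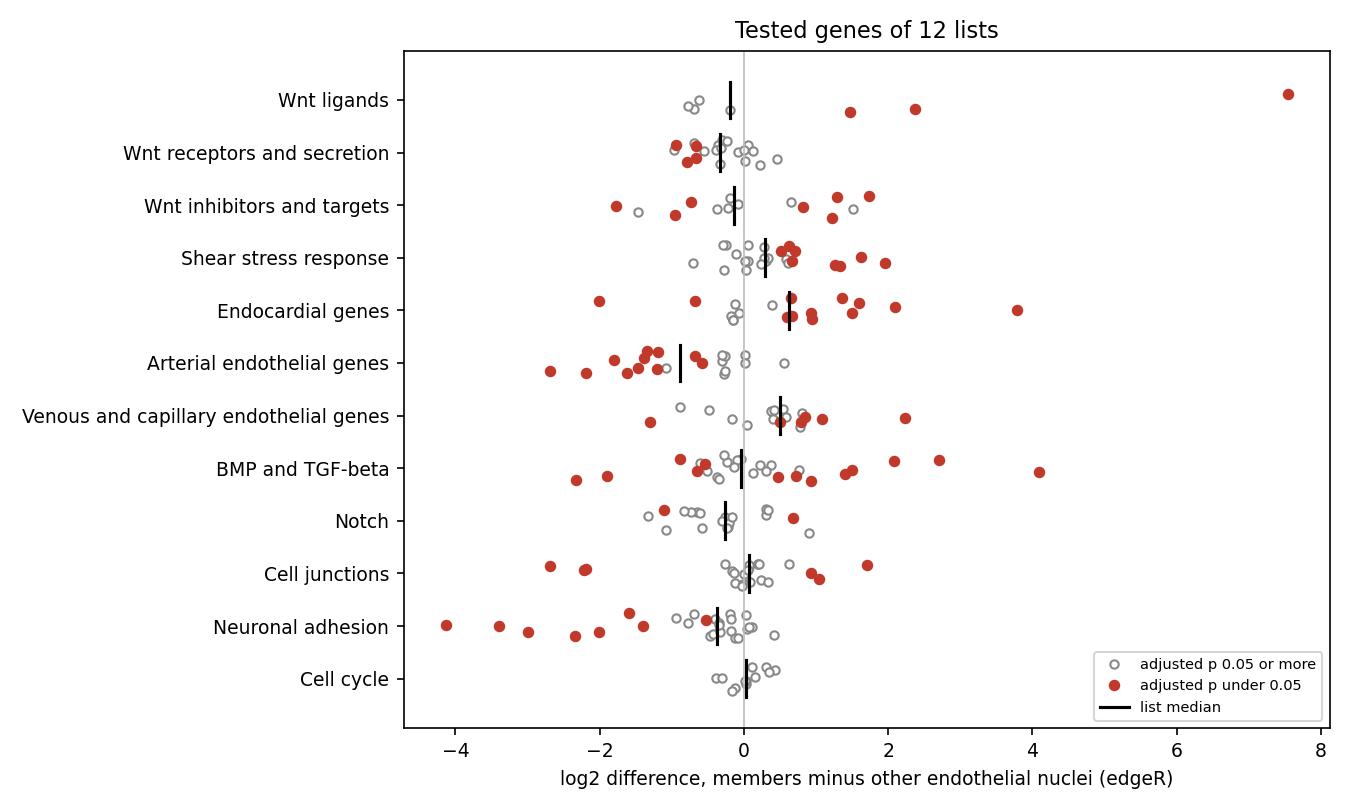
Log2 difference of members minus the other endothelial nuclei for the tested genes of 12 lists, 1 point a gene. Filled points passed an adjusted p under 0.05 and black bars are list medians. The arterial median lay at -0.88 and the endocardial median at 0.63.

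Ion channels went both ways. Of 18 tested potassium channel genes other than Kcnc2, 4 were higher and 2 lower (3 and 2 of 11 after mitochondrial matching). Kcnd3 was at 43, 108 and 71.7 CPM against 8.36, 10.3 and 18.1 (log2 difference 2.59, adjusted p = 1.35e-05), whereas its relative Kcnd2 was at 17.6, 0 and 16.2 against 85.8, 105 and 103 (log2 difference -2.91, adjusted p = 6.06e-05). The Kcnd2 call was lost with DESeq2. Of 16 tested calcium, sodium and mechanosensitive channel genes 3 were higher and 3 lower (1 and 3 with DESeq2, 3 and 3 of 13 after matching). The calcium channel subunit Cacna2d3 was lower (log2 difference -3.01) and the chloride channel Ano1 higher by 1.36, a call lost without pool 2. The mechanosensitive channel Piezo1 differed by 0.50 (adjusted p = 0.0439) and lost its call in 8 alternatives, among them without pool 1 and without pool 2.

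Matrix genes are given beside the shares over all genes tested, 6.6% higher and 4.88% lower. Of 23 tested basement membrane genes 7 were higher and 8 lower (3 and 6 of 22 after mitochondrial matching): Col4a1 and Col4a2 were higher by 0.80 and 0.76, while Col4a3 and Col4a4 were lower (log2 differences -1.14 and -1.41). Each of these 4 calls was lost in 1 alternative: Col4a1 after mitochondrial matching, Col4a2 and Col4a3 with members chosen without Kcnc2, and Col4a4 after matching on UMI total. Of 30 tested elastic fibre and collagen genes 2 were higher and 7 lower (0 and 9 of 27 after mitochondrial matching). Of 26 tested proteoglycan and matricellular genes 2 were higher and 4 lower (2 and 5 of 23). The higher counts of both lists lay near the share over all genes. Fbln5, which organises elastic fibres, was lower (log2 difference -1.81) and so was Fn1 (-1.12); Adamts5, a versican-cleaving protease, was higher by 1.63. Of 28 tested neuronal adhesion genes 8 were lower and 0 higher (0 also at an unadjusted p under 0.05 and with DESeq2; 4 of 20 lower after mitochondrial matching), among them Lsamp at 54.7, 16.9 and 76.3 CPM against 329, 408 and 479 (log2 difference -2.99, adjusted p = 1.24e-06).

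Of 12 tested cell cycle genes, 0 passed in either direction against the other endothelial nuclei (0 at an unadjusted p under 0.05 and with DESeq2). Over all genes tested 11.5% passed, so 0 of 12 lies near that share. After mitochondrial matching 1 of 8 was higher, and against class A 1 of 12 (median 0.60), where 12.4% of all genes were higher. By UMIs per nucleus, nuclei with at least 2 cell cycle UMIs after thinning were 5.0% ± 4.03 of members and 5.28% ± 1.23 of the others (SD, n = 3). The share of members was 2.76% without pool 1. Notch genes gave 1 higher and 1 lower of 19 tested, Hes1 and Mfng, near the shares over all genes tested (6.6% and 4.88%). After mitochondrial matching the Hes1 call was lost and 1 other gene of 11 tested, Hey2, was higher. The Hes1 call was also lost without pool 1 or pool 2, and the Mfng call without pool 2 or pool 3. With DESeq2 neither direction held a call in this list.

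Against class A, 2360 of 11116 tested genes differed (21.2%), 1383 higher in members (12.4%) and 977 lower (8.79%). With at least 2-fold in 3 of 3 pools and 20 CPM, 5.15% were higher and 3.3% lower. The count was 1155 without pool 1 and 1257 without pool 2. The 5 furthest higher were Nppc, Serpinb9b, Wnt7a (a call lost with DESeq2, adjusted p = 0.370), Gm12648 and Nts, and the 5 furthest lower Gm40604, Gm52229, Gm30063, Adam2 and Enox1. Enox1 was at 13.7, 6.34 and 25.4 CPM in members and 530.5, 545 and 524 in class A (log2 difference -5.20, adjusted p = 1.11e-08). Nppc had 187 UMIs in members and 3 in class A, a ratio of 143 (48.3 to 701). Gm40604 had 0 UMIs in members and was at least 12-fold lower, taking 3 counts over the members as the floor.

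Against class B, 1599 of 11116 differed (14.4%), 879 higher (7.91%) and 720 lower (6.48%). By the stricter conditions 3.87% were higher and 2.91% lower. The count was 986 without pool 1 and 997 without pool 2. The 5 furthest higher were Wnt7a (a call lost with DESeq2, adjusted p = 0.341), Serpinb9b, Nts, Adamts8 and Mapt, and the 5 furthest lower Arfgef3, Dlx6os1, Pcdh10, Trpc5 and Dcdc2a. Wnt7a had 0 UMIs in class B and was at least 42.0-fold higher in members. Trpc5 was at 2.93, 0 and 2.31 CPM in members and 121, 90.5 and 103 in class B (log2 difference -5.70). It entered that test through its UMIs outside the members. Of 17 tested venous and capillary genes, 12 were higher than in class A and 12 higher than in class B, with 1 lower in each. Class A and class B were compared with the same members, so the 2 comparisons are not independent.

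Levels within the members are described here by the sum C, with no test. Over all pools, Nts stood at 31.5 CPM in the 61 members with C of 2 to 4, 85.1 in the 84 with C of 5 to 12 and 583 in the 109 with C of 13 or more, against 8.17 in endothelial nuclei with C of 0. Sema3a stood at 91.6, 310.5 and 752 CPM in the same bands, and Edn1 at 183, 36.7 and 26.5. For these 3 genes the low band lay nearer to the nuclei with C of 0 than the high band did. Inhba did not follow the order of the bands, at 298, 104 and 265 CPM. Nuclei just outside the rule, with C of 1 and no class A or B counts, held Nts at 40.3 CPM and Klf2 at 237, against 31.5 and 135 in the lowest member band. The median mitochondrial percentage moved with the bands, at 1.45, 1.99 and 2.80, and its part in these values was not tested.

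**Figure D5:**
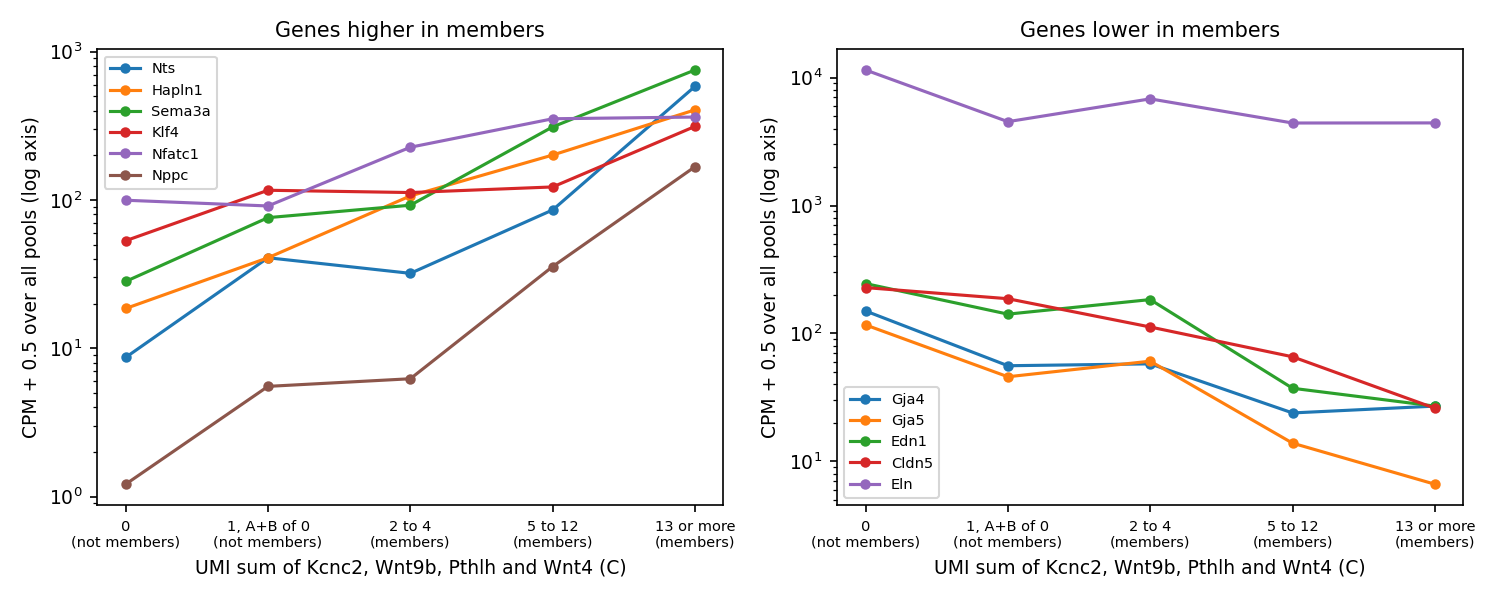
CPM + 0.5 on a log axis, summed over all pools, for 6 genes higher (left) and 5 genes lower (right) in members, by the UMI sum C of the 4 rule genes. Points are bands of nuclei and have no replicate error. Nts climbed from 31.5 to 583 CPM across the member bands and Edn1 went from 183 to 26.5.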

How the data were processed

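Nuclear RNA was measured with 10x Genomics 3' libraries of the Multiome kit, per the labels' protocols; the chromatin part was not analysed here. What the authors deposited for each pool is a sparse table of unnormalized UMI counts over 36167 features. Its header names Cell Ranger 7.1.0; Cell Ranger 7.0.1 and build GRCm39 stand in the submitters' processing notes, and the annotation is not given in the sources used here. Barcodes had already been called as nuclei.

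Counts were summed per pool and class (members 432272 to 1023665 UMIs a pool, other endothelial nuclei 2321182 to 8011219). edgeR 4.0.16 in R 4.3.3 was used (TMM, filterByExpr, glmQLFit and glmQLFTest, pool as a block, Benjamini-Hochberg, threshold 0.05): 6 sums for members against the others, 12 for classes A and B. The SE is the absolute log2 difference over the square root of F. The 24 rule genes stayed in library sizes and were not tested. Nuclei of a pool share a library, which is the pairing: class deviations within pools 1, 2 and 3 correlated at 0.287, 0.402 and 0.375 over 7885 genes. The fit was tested on simulated data with the pools' depths.

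Likely doublets were scored with Scrublet (scanpy 1.11.5). Its automatic threshold marked 0, 0 and 1 nuclei, so it had not worked, and the highest scores were marked at 0.8% per 1000 deposited nuclei instead; marked nuclei stay in and are left out in an alternative. Shares of nuclei with a UMI were thinned to 1000 UMIs a nucleus, with cardiomyocyte nuclei (at least 2% cardiac UMIs, at most 1 endothelial gene) as background. CPM scales a gene's UMIs by the UMI total of its class in its pool and is not divided by gene length. Named genes are the rule genes, the 15 furthest higher and 10 furthest lower against the others, the 5 furthest each way against classes A and B (adjusted p under 0.05, at least 2-fold, 3 of 3 pools, 20 CPM), and genes of the lists. Of the 15, 1 is not reported here. Members and lists were chosen with earlier results of these data known. The 6 genes for the promoter search were chosen after their values were seen. Promoters come from a RefSeq table (GRCm38.p6), matched by symbol for 6 of 6.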

Additional observations from a re-analysis of the deposited data

How the results depend on the processing

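For members against the other endothelial nuclei (1376 genes called), DESeq2 called 797, matching on UMI total 882, no mitochondrial limit 2680 and matching on mitochondrial percentage 773; leaving out a pool gave 942 to 1863. Against class A (2360), matching on UMI total gave 1494, matching on mitochondrial percentage 1416 and leaving out a pool 1155 to 2324. Against class B (1599), no mitochondrial limit gave 2567 and leaving out a pool 986 to 1519. The matched fits hold fewer nuclei and test fewer genes; for the other settings the cause was not tested. Without the replicate block (the pairing by pool) the counts were 992, 1607 and 1189. With no filter on low counts the split of the first comparison was 774 higher and 849 lower, in place of 791 and 585. Genes called in the lists numbered 160, and 111 to 235 across alternatives. The share of members was 10.3%, 15.1% with no mitochondrial limit, 3.94% with C counted without Kcnc2, and 9.18% to 11.05% leaving out a pool. Nuclei with 2 or more cell cycle UMIs were 16.2% of members without thinning, and 2.76% to 6.66% leaving out a pool. Kit turned to -0.44 (adjusted p = 0.542) with C counted without Kcnc2, from 1.08. Of 147 named results, 19 lost their call with DESeq2, 13 without the replicate block, 14, 15 and 4 without pools 1, 2 and 3, and 17 of 122 with mitochondrial matching. Matching on mitochondrial percentage and C without Kcnc2 were chosen after seeing the data. Depth limits genes under about 20 CPM most, since a member pool holds as few as 432272 UMIs.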

Other observations

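Of 25 tested immediate early and heat shock genes, from a list of 30 chosen after their values were seen, 17 were higher in the members and 0 lower with edgeR, with a median of 1.08. With DESeq2 13 were higher and 0 lower, and 0 were lower at an unadjusted p under 0.05. The list was chosen for its pattern, so these counts are a description. The small heat shock gene Hspb1 was at 237, 291 and 368 CPM in members against 32.1, 31.6 and 28.4 in the other endothelial nuclei (edgeR log2 difference 3.22, SE 0.16, adjusted p = 1.96e-08). The growth factor gene Hbegf was at 193, 184 and 90.2 against 9.24, 18.7 and 8.62 (log2 difference 3.79, SE 0.23, adjusted p = 8.47e-08). The stress factor Atf3 was at 12.7, 76 and 55.5 against 2.75, 2.3 and 3.45 (log2 difference 3.70). Atf3 entered the test through its UMIs in the members alone, so its call adds nothing to these levels. Member pools lay above all other pools for the 3 genes. Of the 13 mitochondrial genes 7 were higher with edgeR and 2 with DESeq2. Among nuclei matched on mitochondrial percentage, 9 of 18 tested immediate early and heat shock genes were higher and 0 of 13 mitochondrial genes.

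Tissue plasminogen activator (Plat) was at 185, 275 and 97.2 CPM against 27.2, 32.8 and 18.1 (log2 difference 2.81, SE 0.17, adjusted p = 9.97e-08) and the protein C receptor gene Procr at 31.3, 29.6 and 11.6 against 80.1, 89.4 and 55.1 (log2 difference -1.57, adjusted p = 0.000193). Placental growth factor (Pgf) was higher by 2.87 and its receptor Flt1 by 0.96. The EGFP reporter was at 6.84, 0 and 2.31 CPM in members and 13.1, 12.9 and 12.5 in the others, a difference that did not pass the test (log2 difference -1.70, adjusted p = 0.0646). It passed with no filter on low counts, without marked doublets, with no mitochondrial limit (adjusted p = 0.00329) and without pool 1 (log2 difference -3.43, adjusted p = 0.0154), over a range of 0.00329 to 0.217 across alternatives. Against class B EGFP was lower (log2 difference -2.02, adjusted p = 0.0286). Single nuclei carried some sums: 66.3% of the members' Ccl2 UMIs and 97.9% of their Xirp2 UMIs came from 1 nucleus each; Xirp2 was picked out after its values were seen.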
